A study of Mus musculus with 2 samples.

Results

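Secreted WNT antagonists are extracellular proteins that keep WNT ligands from activating their receptors. The 10 genes described here were taken by symbol from the release M21 gene tables: 5 secreted frizzled-related proteins (Sfrp1, Sfrp2, Frzb, Sfrp4 and Sfrp5), 3 dickkopfs (Dkk1, Dkk2 and Dkk3), the WNT inhibitory factor Wif1 and Sostdc1. All 10 were found, among 55536 genes of which 22028 code for protein. They were measured by polyA plus RNA-seq in facial prominences of healthy B6NCrl mouse embryos aged 12.5 days. One library came from a pool of 120 embryos (replicate 1) and the other from a pool of 88 (replicate 2), males and females together. Both carried ERCC spike-in RNAs and started from 10 ng of RNA, and no embryo was treated or mutant. With 1 tissue at 1 age there is no contrast between conditions, and the pools hide variation between embryos.

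WNT ligands act through Frizzled receptors and the co-receptors LRP5 and LRP6, and their signal stabilises beta-catenin. Secreted frizzled-related proteins carry a cysteine-rich domain like that of the Frizzled receptors and bind WNT ligands directly, as does WIF1 through a domain of its own. DKK1 and DKK2 instead bind LRP5 and LRP6, and Kremen proteins can take part in removing the co-receptor from the cell surface. SOSTDC1 binds BMPs as well as LRP proteins. In the growing face, WNT signals pass between ectoderm and mesenchyme and are needed for outgrowth of the prominences, closure of lip and palate, and tooth initiation.

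Summed expected counts (estimated reads per gene) were 28705073 in replicate 1 and 41092194 in replicate 2. Defining markers of the labelled tissue were present in both libraries: all 8 facial mesenchyme genes and all 8 epithelial genes had at least 1 TPM (a relative abundance corrected for transcript length). Markers of cartilage, lens and eye, neurons, muscle, endothelium, macrophages and red cells were also all at or above this minimum, as were 4 of 6 bone markers. Of all protein-coding genes, 60.7% were. The antagonist levels are therefore averages over mixed cells. In such bulk tissue, fewer cells of a type and less RNA per cell cannot be told apart.

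All 10 antagonists reached 1 TPM in both libraries, where 60.7% of all protein-coding genes did. Their levels spanned more than 2 orders of magnitude and fell into 3 tiers, with Sfrp2 alone at the top, 7 genes in the middle and Sfrp4 and Sfrp5 at the bottom. Summed over the 10 genes, the TPM was 668.3 in replicate 1 and 662.5 in replicate 2. Sfrp2 held 61.5% and 62.1% of these sums.

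**Figure D1:**
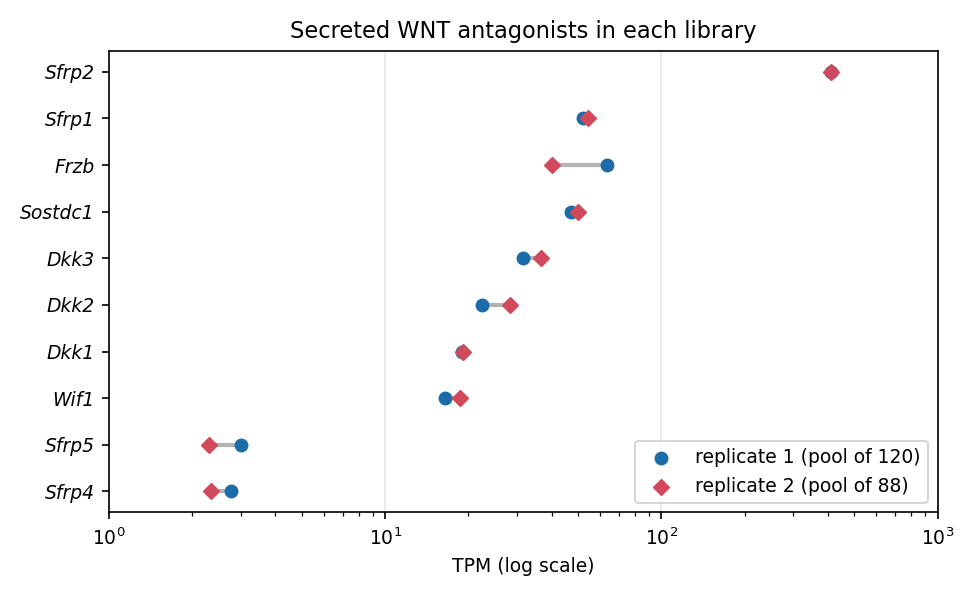
Level of each antagonist in TPM (logarithmic axis), with replicate 1 as circles, replicate 2 as diamonds and a grey bar joining both values. Sfrp2 stands alone at a mean of 411.2 TPM, Sfrp4 and Sfrp5 lie near 2 to 3 TPM, and Frzb shows the widest gap between the libraries, at 63.6 and 40.1 TPM.

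The sequences that lie directly before the start sites of 3 antagonists from the different tiers are shown first, as these are the genes whose start is the same base in both annotations used. RefSeq promoter windows (build GRCm38.p6) were found for 6 of the 10 genes. In 3 of them, Sfrp2, Dkk2 and Sfrp5, the RefSeq start was the same base as the start of the leading GENCODE M21 transcript. The read data here do not measure where transcription starts. Each sequence below is the 250 bases before the start, 5′ to 3′ on the strand of the gene, at chr3:83766071-83766320 (plus strand) for Sfrp2, chr3:132085042-132085291 (plus) for Dkk2 and chr19:42202253-42202502 (minus) for Sfrp5. Capitals mark matches, on either strand, to the TATA box TATAAA, the CCAAT box, the GC box GGGCGG and either of the core letter runs of TCF/LEF sites, which are CTTTGA and also CTTTGT.
Sfrp2: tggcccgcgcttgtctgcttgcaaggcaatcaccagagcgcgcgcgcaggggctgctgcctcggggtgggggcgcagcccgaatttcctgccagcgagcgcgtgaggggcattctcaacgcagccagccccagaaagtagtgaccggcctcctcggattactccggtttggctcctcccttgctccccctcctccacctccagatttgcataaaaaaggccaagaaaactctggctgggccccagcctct
Dkk2: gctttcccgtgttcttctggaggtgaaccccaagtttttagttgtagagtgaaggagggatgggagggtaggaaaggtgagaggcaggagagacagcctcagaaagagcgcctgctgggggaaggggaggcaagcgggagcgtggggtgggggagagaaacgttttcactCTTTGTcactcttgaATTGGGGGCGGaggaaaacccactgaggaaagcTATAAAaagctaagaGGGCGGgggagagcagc
Sfrp5: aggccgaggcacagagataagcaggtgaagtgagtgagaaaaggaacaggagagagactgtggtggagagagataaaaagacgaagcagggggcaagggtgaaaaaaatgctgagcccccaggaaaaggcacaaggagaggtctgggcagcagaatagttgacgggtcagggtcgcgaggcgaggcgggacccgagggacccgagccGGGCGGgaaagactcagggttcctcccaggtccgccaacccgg

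The window of Sfrp2, the most abundant antagonist, held none of these letter runs. Dkk2 held TATAAA from 32 to 27 bases before its start, GGGCGG at 60 to 55 and at 17 to 12 bases, and CTTTGT at 80 to 75 bases. It also held CCAAT on the other strand at 65 to 61 bases, which lies directly before a GC box so that the capitals run together. Sfrp5 held 1 GC box, from 43 to 38 bases before its start. Over all 32851 windows of this length, TATAAA was in 12.4%, CCAAT in 33.9%, GGGCGG in 32.7%, CTTTGA in 13.8% and CTTTGT in 16.5%. G and C made up 63.6% of the Sfrp2 window, 55.6% of that of Dkk2 and 59.6% of that of Sfrp5, beside a median of 52.4% over all windows. A match is a description of letters, and no match says only that these letters are absent from this window.

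Among the secreted frizzled-related proteins, Sfrp2 (chromosome 3, 83766321 to 83774316) had 410.8 TPM in the first library and 411.6 in the second, a mean of 411.2 ± 0.537 (SD, n = 2). It ranked 285 and 286 among protein-coding genes. Its mean was 7.75 times that of Sfrp1, the next antagonist. The Sfrp2 expected counts, 14322.77 and 20364.98, were the only ones among the 10 genes that were not whole numbers. An antisense gene, Gm26771, overlaps its last 464 bases and stood at 7.08 and 5.60 TPM. Without a stated strand setting, reads of this overlap cannot be assigned to either gene.

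Sfrp1 (chromosome 8, 23411502 to 23449632), which in mice acts redundantly with Sfrp2 in axis growth, stood at 52.0 and 54.2 TPM, a mean of 53.1 ± 1.51. Frzb, also called Sfrp3 and first purified from cartilage extracts, stood at 63.6 and 40.1 TPM, a mean of 51.9 ± 16.6. Frzb thus varied far more between the libraries than Sfrp1 at nearly the same mean. Sfrp4 (chromosome 13, 19623104 to 19632994), the closest family member of Frzb, was at 2.76 and 2.33 TPM, and Sfrp5 (chromosome 19, 42197971 to 42202252) at 3.01 and 2.29 TPM. Sfrp4 and Sfrp5 rested on 108 and 130 and on 100 and 108 counts. Together the 5 genes summed to 532 TPM in replicate 1 and 510.4 TPM in replicate 2, or 79.6% and 77.0% of all antagonist TPM.

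Dkk3, a divergent dickkopf that does not share the LRP binding of the others, led its family at 31.5 and 36.6 TPM (mean 34.0 ± 3.62, chromosome 7, 112116017 to 112159057). Dkk2 followed at 22.3 and 28.2 TPM (mean 25.2 ± 4.14, chromosome 3, 132085292 to 132180304). Dkk1, which is required for head formation in the mouse, stood at 19.0 TPM in both libraries (mean 19.0 ± 0.0354, chromosome 19, 30545863 to 30549665). The order Dkk3, Dkk2, Dkk1 held in each library. Wif1 (chromosome 10, 121033960 to 121100650) was close to Dkk1 at 16.4 and 18.6 TPM. Sostdc1, whose loss in mice leads to extra teeth (chromosome 12, 36314139 to 36318452), stood at 46.9 and 49.7 TPM, above all dickkopfs in both libraries.

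The order of the 10 levels was set against the spread over the libraries. Of 9 neighbouring pairs, 3 had TPM ranges that overlapped: Sfrp1 and Frzb, Frzb and Sostdc1, and Sfrp5 and Sfrp4. Each of these pairs changed its order between the libraries. In replicate 1 Frzb was the second highest antagonist, and in replicate 2 it was below Sfrp1 and Sostdc1. The other 6 pairs kept their order in both libraries. For Dkk1 and Wif1 the separation was small, with the lowest Dkk1 value at 18.99 TPM and the highest Wif1 value at 18.57 TPM.

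The libraries were then compared gene by gene. Expected counts were divided by the total over genes of their library, and the ratio of replicate 2 to replicate 1 was given an exact 95% interval for counting error alone. Reads from amplified libraries are not independent molecules, so the interval is narrow. This sets 1 library against 1 library, and no p-value was computed. The interval excluded 1 for 4 of 10 antagonists, where it did so for 28.7% of 15249 protein-coding genes with a summed count of at least 20. It lay above 1 for 3 of the 10 (14.1% of all these genes) and below 1 for 1 of the 10 (14.7%). When the libraries were scaled by their ERCC spike-ins in place of their gene counts, every log2 ratio was lower by 0.13. The split then turned to 1 of 10 above 1 (3.36% of all these genes) and 5 of 10 below (48.5%).

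Frzb was the 1 antagonist whose interval lay below 1. Its 3260 and 3197 expected counts gave a ratio of 0.687 (interval 0.654 to 0.721), although replicate 2 was the deeper library. Dkk2 (1483 and 2656 counts) was higher in replicate 2 at a ratio of 1.25 (1.18 to 1.34), and so was Dkk3 (1892 and 3120 counts) at 1.15 (1.09 to 1.22). Wif1 had 663 and 1055 counts and a ratio of 1.11, with an interval from 1.01 to 1.23 that included 1 when widened to 99%. With spike-in scaling, Frzb (0.630, interval 0.599 to 0.661) and Dkk2 (1.15, 1.08 to 1.23) kept their direction and call. The intervals of Dkk3 (1.06, 0.9995 to 1.12) and Wif1 (1.02, 0.926 to 1.13) then included 1, and those of Sfrp1, Sfrp2, Sfrp5 and Dkk1 lay below it. With gene counts as the scale, none of the other intervals excluded 1. Sfrp2 had a ratio of 0.996 (0.975 to 1.02), Dkk1 0.996 (0.910 to 1.09), Sfrp1 1.03 (0.994 to 1.08) and Sostdc1 1.05 (0.984 to 1.12). The intervals of the low genes were wide, at 0.571 to 1.00 for Sfrp5 (ratio 0.756) and 0.648 to 1.10 for Sfrp4 (0.843). On this scale, differences of this size were not told apart from counting error at this depth. For Sfrp5 the call depends on the scaling, with 0.693 (0.523 to 0.919) under spike-in scaling.

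On the scale of log2((TPM + 1) of replicate 2 over replicate 1), no antagonist reached a difference of 1, as 0.182% of all protein-coding genes did. Frzb was at -0.65 and was the 1 of 10 past 0.5 in size, a threshold chosen after the values were seen. Of the 13382 protein-coding genes with at least 1 TPM in both libraries, 2.09% passed it. The protein-coding transcript of Frzb alone, described below, was at -0.48 and did not pass. Dkk2 was at 0.32, Dkk3 at 0.21, Wif1 at 0.17 and Sfrp2 at 0.00. The median of the 10 log2 ratios was 0.03, beside 0.00 over those 13382 genes.

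**Figure D2:**
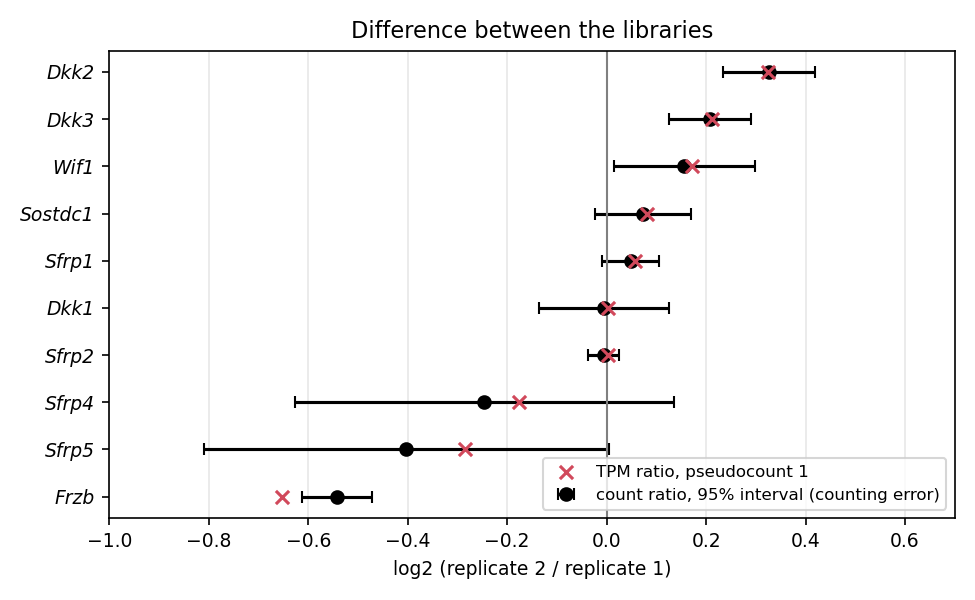
Log2 ratio of replicate 2 to replicate 1 for each antagonist, as count ratios with exact 95% intervals for counting error (black circles and bars) and as TPM ratios with a pseudocount of 1 (crosses). Dkk2, Dkk3 and Wif1 lie above 0 with their bars, Frzb lies below, and its TPM ratio of -0.65 falls outside its own count interval of -0.61 to -0.47.

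For Frzb the TPM differed more than the counts, and the transcript tables show where the difference between both scales lies. Frzb has 2 annotated transcripts, a protein-coding one (3149 bases, chromosome 2, 80411970 to 80447625) and a short noncoding one (830 bases). In replicate 1, the short transcript was assigned 100.08 of 3260 counts and, being short, 7.43 TPM, or 11.7% of the abundance of the gene. In replicate 2 it was assigned 0 counts. The authors' posterior mean estimate gave it 11.6% and 1.80% instead. The coding transcript alone stood at 56.2 and 40.1 TPM, a log2 ratio of -0.48, and its count ratio was 0.709 (interval 0.674 to 0.745). It was thus lower in replicate 2 as well, by less than the gene value shows.

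Of the 830 bases of the short transcript, 742 lie in exons of the coding one, so few reads can tell both transcripts apart. Its own part is 88 bases of an intron of the coding transcript that run directly into a shared exon. Its first exon, at chr2:80438495-80438630 (mm10, minus strand, letters from the GENCODE M21 transcript), is shown 5′ to 3′ with these 88 bases in capitals and the 48 shared exon bases in lower case.
Frzb short transcript: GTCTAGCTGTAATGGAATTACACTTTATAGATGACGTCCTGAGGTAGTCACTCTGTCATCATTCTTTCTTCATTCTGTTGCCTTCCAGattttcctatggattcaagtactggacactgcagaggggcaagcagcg

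The other genes with several transcripts were Sfrp2 (3), Wif1 (3) and Sfrp4 (4). The remaining 6 antagonists have 1 annotated transcript, which held 100% by construction. A single transcript carried at least 50% of the abundance in both libraries in 4 of the 4 antagonists with several, and in 66.9% of detected protein-coding genes with several. The leading Wif1 transcript carried 100% and 97.3%, with the rest of replicate 2 on a retained-intron transcript, beside 91.8% and 91.5% in the posterior mean estimate. Sfrp4 was the most divided: a transcript of 1764 bases held 61.1% and 60.0%, a longer one of 4049 bases 24.5% and 25.1%, and one of 1062 bases 14.5% and 14.9%. In the posterior mean estimate the leading share was 51.6% in replicate 1 and 50.02% in replicate 2, close to the minimum. These shares rest on 108 and 130 counts in all, but the order of the 3 transcripts was the same in both libraries.

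**Figure D3:**
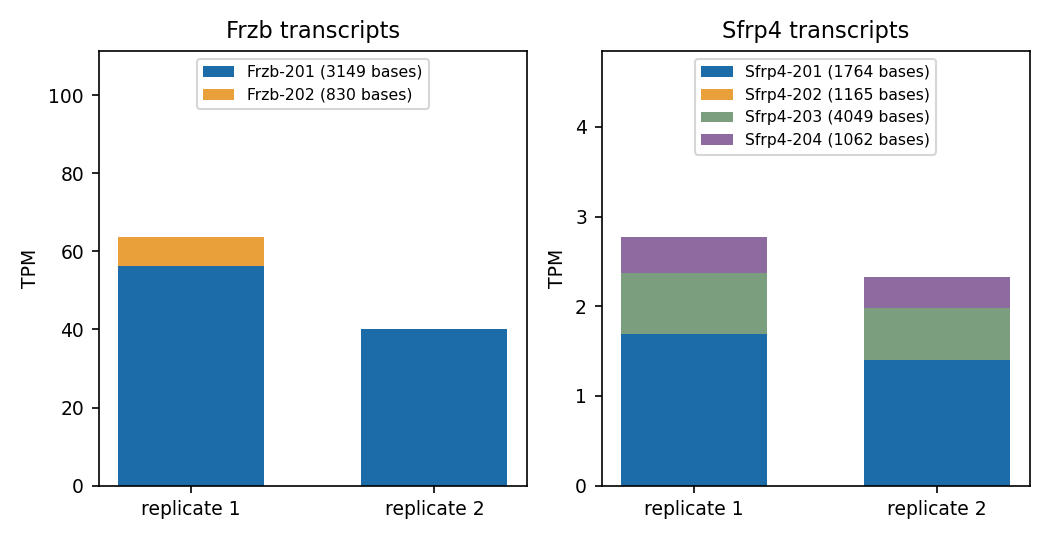
TPM of the annotated M21 transcripts of Frzb (left) and Sfrp4 (right), stacked by transcript for each library. The short Frzb transcript adds 7.43 TPM in replicate 1 and 0 in replicate 2, while Sfrp4 is divided in nearly the same way in both libraries.

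The same reads had also been quantified with the older annotation release M4, and no antagonist moved by 0.25 or more on the log2 scale in both libraries, as 7.83% of protein-coding genes of both releases did. For 9 of the 10 genes the M4 value was higher by 5.49% to 7.37%, beside a median of 5.28% (replicate 1) and 5.25% (replicate 2) over detected protein-coding genes. Sfrp4 was the exception, with changes under M4 of -3.62% and -4.72%. M4 holds 1 Sfrp4 transcript, without the longer one, and assigned it 77 and 91 counts in place of 108 and 130. The short Frzb transcript is in both releases, and under M4 it again took 12.6% of Frzb in replicate 1 and 0% in replicate 2.

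Marker genes of several cell types and facial regions also differed between the pools, and their values stand beside those of the antagonists. Of 8 cartilage markers, 6 had a count interval below 1 and 1 (Sox9) above 1, beside 14.7% and 14.1% of all genes. With spike-in scaling 6 lay below 1 and 0 above, beside 48.5% and 3.36% of all genes. The summed TPM of the 8 markers was 667 in replicate 1 and 612 in replicate 2. Acan stood at 6.36 and 3.79 TPM and Matn1 at 5.48 and 3.26 TPM. All 8 first-arch genes were lower in replicate 2 (548.6 and 350.3 TPM summed), among them Barx1 at 168 and 83.9 TPM. All 8 neuronal markers were lower as well (495 and 385 TPM summed). Of the 13382 protein-coding genes with at least 1 TPM in both libraries, 6626 were lower in replicate 2. All 8 first-arch and all 8 neuronal intervals lay below 1 with either scaling. Of 5 red-cell markers, 4 were lower in replicate 2 (9160 and 8322 TPM summed over the 5). Their intervals lay below 1 for 2, or for all 5 with spike-in scaling. Among all genes 14.7% lay below 1, or 48.5% with spike-in scaling. Frzb went the same way as these lists, and their part in its difference was not tested.

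Lists that were higher in replicate 2 were those of lens and eye, muscle and the frontonasal region. For lens and eye all 8 intervals lay above 1, or 6 with spike-in scaling (227 and 498 TPM summed). For muscle 5 of 6 lay above 1 with either scaling (349 and 437 TPM). For the frontonasal region 4 of 5 lay above 1, or 3 with spike-in scaling (168 and 234 TPM). Among all genes 14.1% lay above 1, or 3.36% with spike-in scaling. Dkk2, Dkk3 and Wif1 went the same way, though with spike-in scaling only the interval of Dkk2 stayed above 1. The part of these tissues in the differences of the 3 antagonists was not tested. The lists of facial mesenchyme and epithelium were nearly level in sum, at 1802 and 1855 TPM and at 403.5 and 405.1 TPM. Their single genes were not all level. Of 8 mesenchyme markers, 4 intervals lay above 1 and 3 below, or 2 and 4 with spike-in scaling. Of 8 epithelial markers, 2 lay above 1 and 2 below, or 1 and 6 with spike-in scaling. Among all genes these shares were 14.1% and 14.7%, or 3.36% and 48.5% with spike-in scaling. Alx1, at a ratio of 1.45, is in both the mesenchyme and the frontonasal list. No marker in any of these lists was at 0 counts in both libraries.

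**Figure D4:**
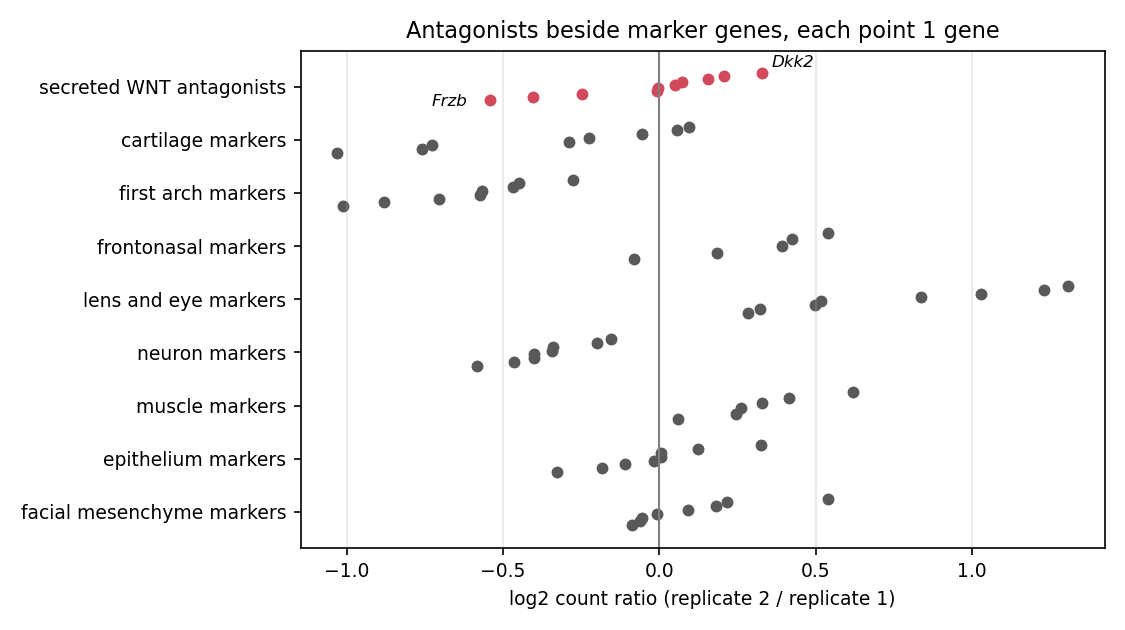
Log2 count ratio of replicate 2 to replicate 1 for the 10 antagonists and for marker genes of cell types and facial regions, 1 point a gene. First-arch and neuronal markers all lie below 0 and lens and eye markers all above it, with Frzb on the side of the former and Dkk2 on the side of the latter.

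The antagonists were set beside the other parts of the WNT pathway. The detection counts of these lists stand beside 60.7% of all protein-coding genes. The median level of the 10 antagonists was 29.6 TPM, beside 21.5 TPM over detected protein-coding genes and 4.79 TPM over all protein-coding genes. Of 11 other extracellular WNT inhibitors, 8 were detected, and the median over all 11 was 1.44 TPM. The list was led by Igfbp4, better known as a binding protein of insulin-like growth factors, at 754 and 736 TPM. Shisa2, which holds Frizzled and FGF receptors back from the cell surface, stood at 40.6 and 42.9 TPM, the membrane inhibitor Apcdd1 at 13.9 and 13.1 TPM and Shisa3 at 12.6 and 8.56 TPM. The dickkopf Dkk4 was below the minimum at 0.80 and 0.72 TPM, as were Sost, the close relative of Sostdc1, at 0.11 and 0.08 TPM (4 counts in each library) and Cer1 at 0.20 and 0.35 TPM.

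Of 19 WNT ligands, 15 were detected. Over all 19 the median was 3.06 TPM, and the summed levels were 186 TPM in replicate 1 and 207 TPM in replicate 2. Sfrp2 alone exceeded this sum in both libraries. Wnt5a, which mostly signals without beta-catenin and drives outgrowth, was the highest ligand at 71.9 and 91.7 TPM. Wnt7b stood at 24.7 and 26.8 TPM, Wnt6 at 23.7 and 24.1 TPM and Wnt11 at 20.2 and 19.0 TPM. Wnt1 (0.10 and 0.30 TPM), Wnt8b (0.28 and 0.35 TPM) and Wnt8a (0 counts in both libraries) were not detected. Wnt2b, named after its values were seen, stood at 0.93 and 1.03 TPM. The count ratio interval lay above 1 for 8 of 19 ligands, among all genes 14.1%, and below 1 for 3, among all genes 14.7%. With spike-in scaling it lay above 1 for 1 ligand and below for 4, beside 3.36% and 48.5% of all genes.

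All 10 Frizzled receptors were detected, at 202.1 and 199.6 TPM in sum, so Sfrp2 also exceeded the receptors whose ligand-binding domain it resembles. Fzd2 was the highest at 76.8 and 73.2 TPM, followed by Fzd1 at 39.8 and 43.5 TPM, and Fzd5 was the lowest at 1.95 and 1.88 TPM. Their intervals lay above 1 for 2 receptors (Fzd1 and Fzd7) and below 1 for 3 (Fzd2, Fzd4 and Fzd9), beside 14.1% and 14.7% of all genes. With spike-in scaling the counts were 0 and 4, beside 3.36% and 48.5% of all genes. The binding partners of the dickkopfs and SOSTDC1 were all detected (5 of 5, median 18.8 TPM). Lrp6 stood at 33.6 and 32.5 TPM and Lrp5 at 6.17 and 5.54 TPM, while Kremen1 (18.3 and 19.3 TPM) and Kremen2 (19.7 and 18.3 TPM) were close to Dkk1. Lrp4, a receptor that binds SOSTDC1, was at 6.17 and 6.42 TPM. With gene counts as the scale, only Lrp5 of these 5 had an interval excluding 1, with a ratio of 0.829 (0.738 to 0.932). That is 1 of 5 below 1, beside 14.7% of all genes. With spike-in scaling 3 of the 5 lay below 1 and 0 above, beside 48.5% and 3.36% of all genes.

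Feedback targets of beta-catenin, which rise in cells that receive the signal, were detected in 9 of 9 genes with a median of 13.5 TPM. Notum and Apcdd1 are also in the inhibitor list. Ccnd1, a cell-cycle gene, was the highest at 103 and 122 TPM. Axin2, a target in most WNT-responding tissues, stood at 11.9 and 13.7 TPM, Lef1 at 83.7 and 83.9 TPM and Nkd1 at 64.8 and 69.6 TPM. The interval lay above 1 for 5 of the 9 (Axin2, Tcf7, Nkd1, Nkd2 and Ccnd1) and below 1 for none, beside 14.1% and 14.7% of all genes. With spike-in scaling it lay above 1 for none and below 1 for 1, beside 3.36% and 48.5% of all genes. The calls above 1 in this list thus depend on the scaling. The median log2 ratio of the 9 genes was 0.19. Antagonist and target levels of the same cells cannot be compared in bulk tissue.

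**Figure D5:**
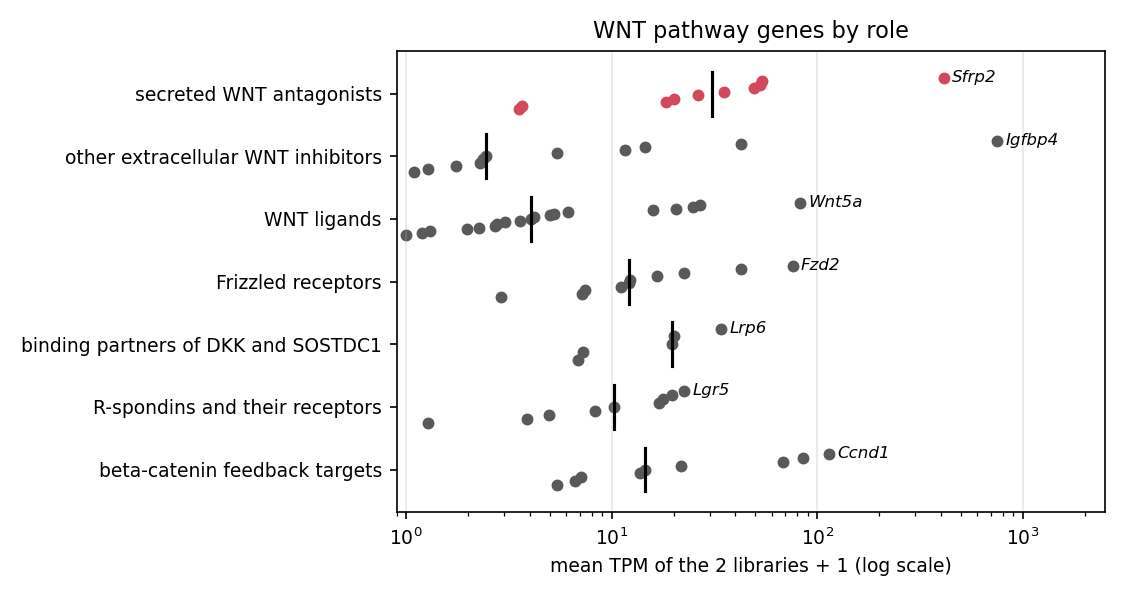
Mean TPM of both libraries plus 1 (logarithmic axis) for WNT pathway genes by role, 1 point a gene, with a black line at the median of each list and the highest gene named. Among the lists shown, the antagonist list, in red, has the highest median (29.6 TPM), and Sfrp2 lies above every gene shown except Igfbp4. Low inhibitors such as Dkk4, Sost and Cer1 are in the separate list of other inhibitors (median 1.44 TPM). The rank of the medians thus depends on how the genes were grouped.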

How the data were processed

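PolyA plus RNA-seq tables of 2 libraries from 1 tissue were used. Per the file headers, the authors deposited for each gene an expected count, TPM and FPKM, each with a posterior mean estimate, and for each transcript the percent of its gene's abundance. Per the deposited file descriptions, the tables were made on mm10 with GENCODE release M21 and again with M4. For the aligner, quantifier and strand setting: not given in the sources used here. Shared reads were divided between features, so expected counts need not be whole.

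All 55536 M21 gene IDs matched the annotation, as did 42462 of 43346 in M4 by ID without version. Spike-ins and other rows naming no gene (2.85% and 3.10% of expected counts) stayed out of library sizes. Expected counts were rounded for exact conditional (Clopper-Pearson) 95% intervals, which were tested on simulated data. The simulated counts held counting error alone, so this test does not cover other variation between libraries. TPM ratios used a pseudocount of 1, and detection a TPM of at least 1 in both libraries. An exact sign-flip test over 2 libraries has a smallest p of 0.5, so no p-value is given. The labels call the libraries biological replicates. Alternatives used edgeR 4.0.16 (TMM), DESeq2 1.42.0 (size factors), spike-in counts, FPKM, posterior means and M4, with scipy 1.17.1 for intervals. All antagonists are named. Any gene of a list of up to 10 could be named, and those that are were picked after their values were seen. Of longer lists, the 4 highest and those below 1 TPM in both libraries are named. Members and lists were chosen with earlier results of these data known.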

Additional observations from a re-analysis of the deposited data

How the results depend on the processing

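Detection of all 10 antagonists, the 3 overlapping neighbours, the absence of a 2-fold difference between libraries, the absence of a difference between releases and the lead of 1 transcript kept their counts within 1.5 times under the alternatives run, with 1 exception. With a log2 threshold of 0.5, added after the data were seen, 1 antagonist (Frzb) passed in place of 0. Within the 1.5 times, detection fell from 10 to 8 at a TPM minimum of 5. Overlapping neighbours rose from 3 to 4 with posterior mean TPM. Antagonists led by 1 transcript fell from 10 to 9 at a minimum share of 80%. The number of count intervals excluding 1 was 4 in the analysis reported, 5 with edgeR TMM or DESeq2 size factors, where Sfrp1 was added (1.05, interval 1.01 to 1.09), 3 with a 99% interval, which dropped Wif1, and 6 with ERCC spike-in scaling. Spike-in scaling lowered every log2 ratio by 0.13. With it, 5 genes lay below 1 (Frzb at 0.630, Sfrp5, Sfrp1, Sfrp2 at 0.913 and Dkk1) and 1 above (Dkk2 at 1.15, interval 1.08 to 1.23), so Dkk3 and Wif1 no longer differed beyond counting error. The directions of Sfrp1, Sostdc1, Sfrp2 and Dkk1 changed between scalings, and those of Frzb, Dkk2, Dkk3 and Wif1 did not. Frzb was at -0.54 as a count ratio and -0.52 as a count ratio with TMM scaling, beside -0.65 as a TPM ratio. The TPM ratio of its coding transcript alone, added after the data were seen, was -0.48 and did not pass the log2 threshold of 0.5. Levels moved by -3.09% to 5.70% with posterior mean TPM, by -4.13% to 7.35% with M4, and by 27.5% for all 10 when TPM was rescaled to protein-coding genes without globins and mitochondrial genes. FPKM is another unit. No replicate block could be fitted to a single group, and leaving out 1 library leaves no ratio. The counts of Sfrp4 and Sfrp5 limit what can be said of both genes.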

Other observations

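Some other WNT pathway genes also differed between the libraries. The R-spondin Rspo1, a secreted enhancer of WNT signals, had 5.67 and then 8.91 TPM (replicate 2 over replicate 1 in counts: 1.64, exact 95% interval 1.37 to 1.97). Lgr5, a receptor for R-spondins, went the other way at 25.7 and 17.3 TPM (0.714, interval 0.670 to 0.762). The inhibitor Shisa3 was also lower in replicate 2, with a count ratio of 0.684 (0.620 to 0.755). Among the 11 other extracellular inhibitors, 1 interval lay above 1 and 2 below, beside 14.1% and 14.7% of all genes. With spike-in scaling 0 lay above 1 and 3 below, beside 3.36% and 48.5% of all genes. Of the 9 R-spondin and receptor genes, 8 were detected, where 60.7% of all protein-coding genes were. Count intervals of the 9 lay above 1 for 2 (Rspo1 and Lgr4) and below 1 for 2 (Rspo3 and Lgr5), beside 14.1% and 14.7% of all genes. With spike-in scaling 2 lay above 1 and 3 below, beside 3.36% and 48.5% of all genes. Rspo4 was below the detection minimum at 0.19 and 0.37 TPM. These ratios set 1 library against 1 library.

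For Frzb, Dkk1 and Wif1 the RefSeq start site did not match the GENCODE M21 start, with distances of 229, 169 and 44 bases, and their windows are not shown for this reason.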
